A study of Mus musculus with 19 samples.

Results

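The 10 genes described here are nuclear genes that belong to, act downstream of or regulate the machinery that maintains and transcribes mitochondrial DNA (mtDNA). They are Tfam, Tfb1m, Tfb2m, Polrmt, Polg, Ssbp1, Lrpprc, Slirp, Top1mt and Ppargc1a. They were chosen by name out of 26621 genes in the table of raw read counts. All 10 were found, Slirp under its older name 1810035L17Rik, and all 10 were among the 13105 genes with enough reads to be tested. The cells were neural progenitor cells (NPCs), the dividing cells that give rise to neurons and glia. They were taken from mouse cortex at embryonic day 17.5 and grown on Matrigel with bFGF and EGF, each at 20 ng/ml. RNA-seq was done on 6 libraries labelled Mettl8 conditional knockout (cKO) and 6 labelled wild type (WT). The driver of the recombination behind the cKO is not given in the sources used here. Mettl8 encodes a methyltransferase that makes 3-methylcytidine (m3C) in mitochondrial tRNA. A further 3 cKO and 4 WT libraries were made by HAC-seq, in which RNA is cut chemically at m3C. The labels do not say that replicates were separate cultures or animals, and a p-value here reflects only how far these libraries differ among themselves, which may be technical.

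Mammalian mtDNA is a small circular genome packaged by TFAM. TFAM also bends promoter DNA, where it recruits the mitochondrial RNA polymerase POLRMT together with TFB2M, which opens the strands. POLG is the catalytic subunit of the DNA polymerase of mitochondria and SSBP1 coats single-stranded mtDNA during copying, while LRPPRC and SLIRP form a complex that stabilizes the mRNAs made from mtDNA. PPARGC1A (PGC-1α) is a nuclear coactivator that works with the transcription factors NRF-1, GABP (NRF-2) and ERRα on genes of this machinery.

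Library names divide the RNA-seq libraries into sets that each hold both genotypes. Set 2 consists of replicates 3 to 6 of cKO and 4 to 6 of WT, and set 1 of replicates 1 and 2 of cKO and 1 to 3 of WT. What distinguishes the sets in the laboratory is not given in the sources used here, and they separated along the first principal component (48.5% of variance). Total counts were 11830839 to 15766429 in cKO libraries and 15096888 to 18863781 in WT libraries. The targeted gene went against its label. Mettl8 had 59.3 to 80.9 CPM (read counts scaled to library size by TMM) in the libraries labelled cKO, against 35.9 to 58.6 CPM in those labelled WT. The log2 fold change was 0.67 (standard error 0.119, edgeR adjusted p = 0.265). The cKO and WT libraries did not overlap, as in 0.13% of all genes. A count over the whole gene does not show whether a deleted exon is missing, so this neither checks nor contradicts the deletion, and every cKO value below is that of libraries labelled cKO. Reads of Y-linked genes were found in cKO replicates 1 and 5, with 10548 and 10363 counts and 0 for Xist. The other libraries had at most 97 Y-linked counts and 2537 to 4338 counts for Xist. Sex as read from these counts was therefore not balanced between genotypes, since no WT library had the high Y-linked level. With it as a covariate, 0 genes were called for genotype by edgeR. Neural progenitor markers were abundant in all libraries, at a summed 11012 to 15773 CPM. Microglial, endothelial and mural, and meningeal markers each summed to at most 7.76 CPM in any library, with C1qa at 0 counts in all 12 libraries.

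The promoters of the genes whose levels differed between library sets, and of Tfb2m, which had the largest estimate for genotype, are shown as the RefSeq windows from 250 bases before to 50 bases after a gene's start. They are printed 5′ to 3′ along the gene in GRCm38.p6, and all 4 lie on the minus strand, Ppargc1a at chr5:51567676-51567975, Tfam at chr10:71237995-71238294, Polg at chr7:79466224-79466523 and Tfb2m at chr1:179546227-179546526. Capitals mark exact matches, on either strand, to textbook motifs picked with the sequences in view: CCGGAAG, the core bound by ETS factors such as GABP, GCGCATGC, the core bound by NRF-1, and TGACG, the CRE half-site bound by CREB. None of the matches overlapped another.
Ppargc1a: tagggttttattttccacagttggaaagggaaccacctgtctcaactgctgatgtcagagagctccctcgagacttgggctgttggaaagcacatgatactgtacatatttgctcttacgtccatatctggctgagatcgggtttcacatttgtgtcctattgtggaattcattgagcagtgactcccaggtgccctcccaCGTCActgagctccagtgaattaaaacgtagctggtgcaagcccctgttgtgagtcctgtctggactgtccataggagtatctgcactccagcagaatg
Tfam: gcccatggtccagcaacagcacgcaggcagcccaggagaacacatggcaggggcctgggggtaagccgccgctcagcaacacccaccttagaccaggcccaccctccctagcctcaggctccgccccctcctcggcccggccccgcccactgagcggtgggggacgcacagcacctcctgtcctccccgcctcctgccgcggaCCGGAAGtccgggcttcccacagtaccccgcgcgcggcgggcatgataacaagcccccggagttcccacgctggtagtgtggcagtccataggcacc
Polg: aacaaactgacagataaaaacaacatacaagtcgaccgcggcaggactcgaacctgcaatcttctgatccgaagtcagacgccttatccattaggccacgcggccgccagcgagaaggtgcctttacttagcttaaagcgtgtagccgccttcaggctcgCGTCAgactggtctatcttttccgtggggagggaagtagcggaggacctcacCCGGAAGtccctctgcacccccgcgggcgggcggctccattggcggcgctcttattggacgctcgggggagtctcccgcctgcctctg
Tfb2m: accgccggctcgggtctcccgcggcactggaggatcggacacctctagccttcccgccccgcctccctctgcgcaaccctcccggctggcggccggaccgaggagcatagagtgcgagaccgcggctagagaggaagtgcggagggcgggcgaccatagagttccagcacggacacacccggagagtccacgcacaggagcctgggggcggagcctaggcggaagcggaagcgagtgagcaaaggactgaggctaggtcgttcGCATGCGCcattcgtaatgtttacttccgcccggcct
The Tfam and Polg windows hold the ETS core, with its first base at position -47 and -38 from the start. The Ppargc1a window holds a CRE half-site in the reverse direction at position -49, and Tfb2m the NRF-1 core in the reverse direction at position 14. The Polg window also covers the tRNA gene n-TRtcg5 (chr7:79466419-79466491). The RefSeq gene of Ppargc1a runs on upstream of its window, from 51454249 to 52115853 on chromosome 5. Those of Polg, to 79467911 on chromosome 7, and Tfam, to 71238328 on chromosome 10, also run on upstream of their windows. Each of these windows shows 1 start of a gene that may have others, and the positions count from that start. Windows were at hand for 9 of the 10 genes, all except Top1mt. Over these 9, the ETS core was in 5 (Tfam, Polrmt, Polg, Ssbp1 and Slirp). It was in 9.12% of 27025 mouse promoters of the same length (1 per gene, with 1 chromosome left out). In Tfam, Polrmt, Polg and Ssbp1 it lay between positions -47 and -38, in the reverse direction in Polrmt. Slirp had 3 copies, at positions -146, -48 and -11. The NRF-1 core was in 2 (Polrmt and Tfb2m), against 2.80% of promoters, and the CRE half-site in 5, against 21.0%. A match is a string of letters, not a measured binding site.

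**Figure D1:**
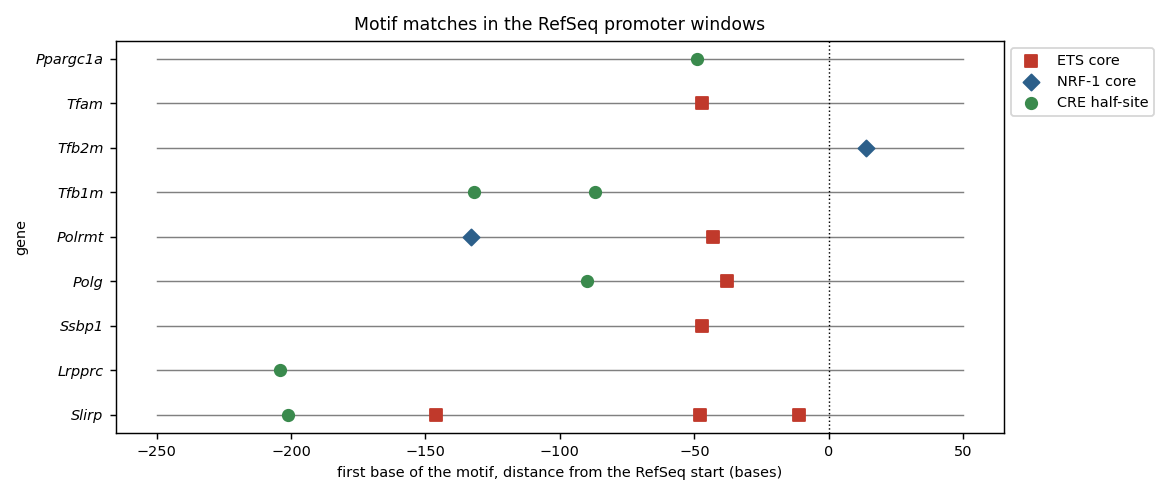
Position of the exact motif matches in the promoter windows of 9 genes, as the distance of the motif's first base from the RefSeq start in bases, with 1 row per gene. The ETS core of Tfam, Polrmt, Polg and Ssbp1 lies at positions -47 to -38, and the copies in Slirp lie at -146, -48 and -11.

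Expression of the 10 genes varied over the 12 libraries to very different degrees. Over both sets the coefficient of variation was lowest for Slirp (6.25%), Ssbp1 (7.32%) and Lrpprc (7.58%). Polg (13.4%), Tfam (15.5%) and Tfb1m (18.2%) were intermediate. Top1mt (22.7%), Tfb2m (24.1%), Ppargc1a (28.3%) and Polrmt (45.3%) varied most. For Ppargc1a the variation within a set was lower, 10.3% in set 2 and 6.65% in set 1, while for Polrmt it was 59.3% in set 2 and 25.6% in set 1. Polrmt and Tfb2m were thinly counted, with 15 to 82 and 48 to 86 reads per library, so counting error is a larger part of their spread than for Slirp, which had 1076 to 1546 reads. No exon lengths were at hand, so levels are compared between libraries and not between genes.

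**Figure D2:**
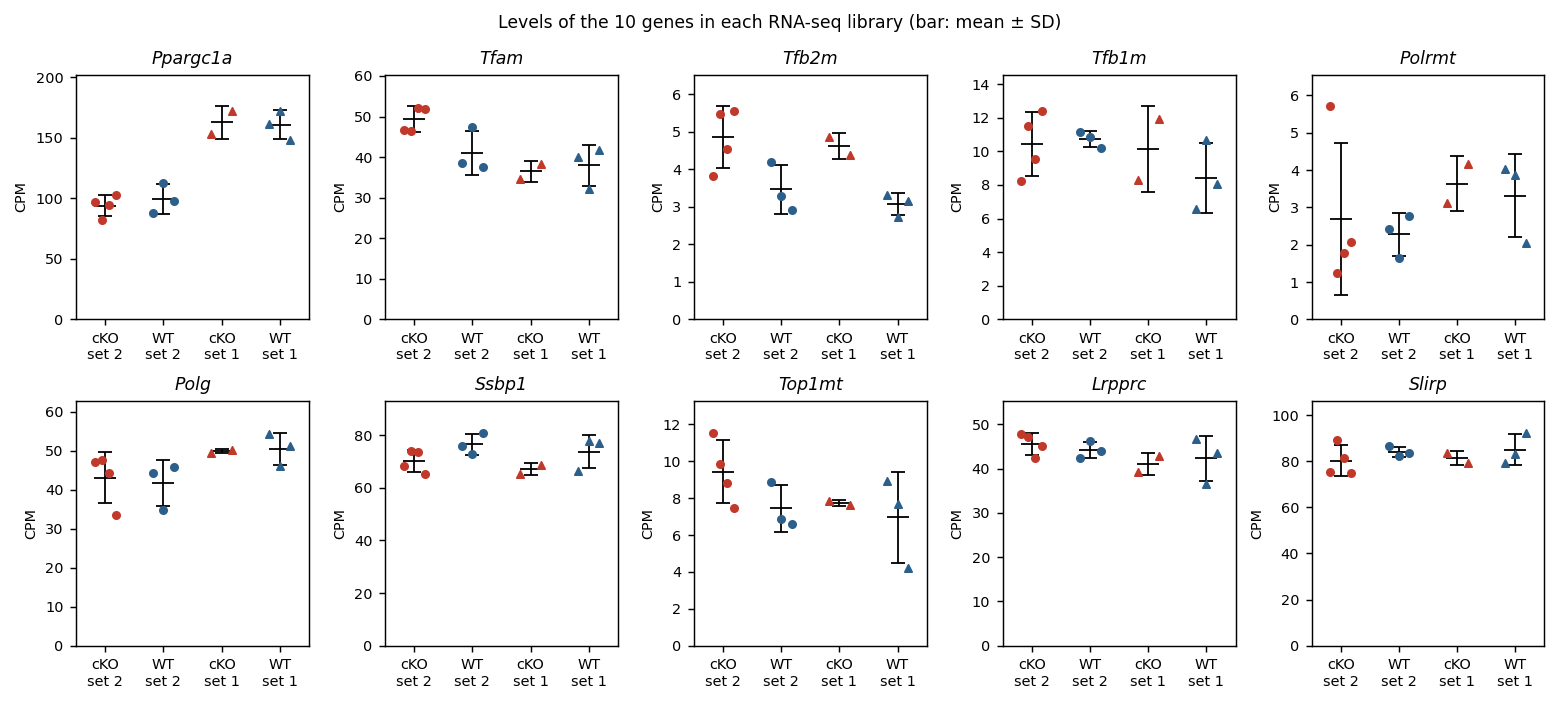
TMM-scaled CPM of each gene in every RNA-seq library, with columns for cKO set 2, WT set 2, cKO set 1 and WT set 1, points for libraries, and bars for the mean ± SD. The sets stand apart for Ppargc1a, at 82.1 to 113 CPM in set 2 and 149 to 172 CPM in set 1, while the genotypes overlap for all 10 genes.

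None of the 10 genes was called different between libraries labelled cKO and WT. Of all 13105 genes tested, 0 passed an adjusted p of 0.05 (0%) in the quasi-likelihood test of edgeR with library set as a covariate, and 805 had an unadjusted p under 0.05 (6.14%). By other tools, DESeq2 called 2 genes and limma-voom 1, none of them among the 10. Estimates for the 10 genes lay above 0 in 7 (49.6% of all genes) and below 0 in 3 (50.4%), with a median log2 fold change of 0.05, against -0.001 over all genes. The cKO and WT libraries overlapped in all 10 genes, and lay apart in 0.13% of all genes. Fold changes are given as log2 values with their standard error (SE) from the fit.

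Among the genes that start mitochondrial transcription, Tfb2m had the largest estimate. Its level was 3.83, 5.47, 4.55 and 5.55 CPM in cKO set 2, against 4.18, 3.29 and 2.90 CPM in WT set 2. In set 1 it was 4.86 and 4.38 CPM in cKO and 3.31, 2.74 and 3.16 CPM in WT. The genotypes did not overlap in set 1, as in 7.83% of all genes in that direction, and overlapped in set 2 through cKO replicate 3 and WT replicate 4. The log2 fold change was 0.53 (SE 0.173, 95% interval 0.17 to 0.89), at percentile 98.9 of all genes, with an unadjusted p of 0.00653 and an edgeR adjusted p of 0.803. It was 0.49 within set 2 and 0.59 within set 1, and 0.48 to 0.62 with each library left out in turn, so the estimate was steady but did not pass the adjusted threshold.

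Tfam, the packaging and promoter-bending protein, had a lowest, median and highest level of 34.7, 46.6 and 52.1 CPM in cKO libraries and 32.2, 39.3 and 47.3 CPM in WT libraries. Its log2 fold change was 0.13 (SE 0.0925, edgeR adjusted p = 0.870). It lay at 0.26 within set 2 and at -0.06 within set 1, but the difference between these, 0.32 (SE 0.178, unadjusted p = 0.0888), did not pass the test of the interaction (adjusted p = 0.9999). Polrmt, the RNA polymerase, had 1.24, 2.59 and 5.70 CPM in cKO libraries and 1.65, 2.60 and 4.03 CPM in WT libraries. Its estimate of 0.20 (SE 0.315) was -0.15 without cKO replicate 3, the highest library at 5.70 CPM. Tfb1m, the paralogue that dimethylates the small ribosomal RNA of mitochondria, had 8.21, 10.5 and 12.4 CPM in cKO libraries and 6.57, 10.4 and 11.2 CPM in WT libraries, with an estimate of 0.08 (SE 0.148).

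The genes of mtDNA copying and topology also gave no call. Polg averaged 45.3 ± 6.19 CPM in cKO libraries and 46.1 ± 6.66 CPM in WT libraries (SD, n = 6 each), with a log2 fold change of 0.02 (95% interval -0.18 to 0.21). Ssbp1 averaged 69.1 ± 3.83 CPM in cKO libraries and 75.1 ± 5.00 CPM in WT libraries (SD, n = 6 each), with the lowest estimate of the 10 genes, -0.13 (SE 0.0635, unadjusted p = 0.0546, adjusted p = 0.806). Top1mt, the mitochondrial type I topoisomerase that relieves supercoils in mtDNA, averaged 8.87 ± 1.59 CPM in cKO libraries and 7.20 ± 1.76 CPM in WT libraries (SD, n = 6 each), with an estimate of 0.26 (SE 0.171) and an interval from -0.10 to 0.62. Polg shares 4036 bases with Fanci in the RefSeq annotation, and the counting is not stated to use strand, so reads of this stretch cannot be told apart.

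Lrpprc averaged 44.1 ± 3.24 CPM in cKO libraries and 43.2 ± 3.63 CPM in WT libraries (SD, n = 6 each). Its estimate of 0.01 had a narrow interval, from -0.15 to 0.17, which rests only on the spread among these libraries. Slirp averaged 80.6 ± 5.41 CPM in cKO libraries and 84.5 ± 4.50 CPM in WT libraries (SD, n = 6 each), with an estimate of -0.06 and an interval from -0.20 to 0.07. Slirp shares its ends with Nrp and Snw1 over 122 and 15 bases, and Tfb1m overlaps Tiam2 and Cldn20 over 148 and 660 bases. Ppargc1a, the coactivator, averaged 117 ± 36.6 CPM in cKO libraries and 130.3 ± 35.2 CPM in WT libraries (SD, n = 6 each). Its estimate with library set as a covariate was -0.04 (SE 0.0720), with an interval from -0.19 to 0.11, and the libraries of each genotype lay at a lower level in set 2 and a higher one in set 1.

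**Figure D3:**
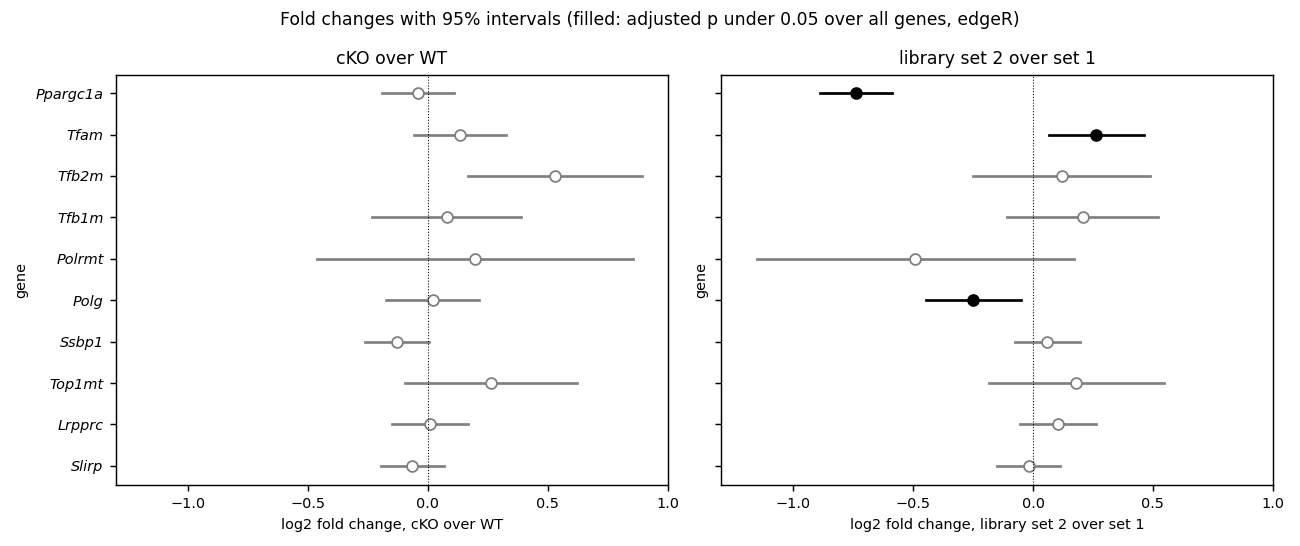
Log2 fold changes of the 10 genes with 95% intervals, for cKO over WT on the left and library set 2 over set 1 on the right, with filled points for an adjusted p under 0.05 over all genes tested (edgeR). All points are open for genotype, and Ppargc1a, Tfam and Polg are filled for library set.

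Library set, not genotype, separated the levels of Ppargc1a. Between sets 5736 of 13105 genes (43.8%) passed the edgeR threshold, 2822 higher in set 2 (21.5%) and 2914 lower (22.2%). Of the 10 genes 3 passed, 1 higher and 2 lower. Ppargc1a had 96.9, 82.1, 94.2 and 103 CPM in cKO set 2, against 153 and 172 CPM in cKO set 1. The WT libraries had 88.3, 113 and 97.8 CPM in set 2, against 162, 172 and 149 CPM in set 1. Every set 2 library lay below every set 1 library, in both genotypes, as in 11.9% of all genes. Ppargc1a fell by 0.74 on the log2 scale in set 2 (SE 0.0723, edgeR adjusted p = 1.39e-07), a level 0.600 times that of set 1. Within cKO libraries it was -0.79 and within WT libraries -0.69, and the call held with each of the 12 libraries left out.

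Tfam was called in the other direction, 0.26 higher in set 2 on the log2 scale (SE 0.0943, edgeR adjusted p = 0.0294). Its levels were 46.7, 46.5, 52.1 and 52.0 CPM in cKO set 2, against 34.7 and 38.3 CPM in cKO set 1. In WT libraries they were 38.5, 47.3 and 37.5 CPM in set 2, against 40.1, 32.2 and 41.7 CPM in set 1. The sets did not overlap in the cKO libraries, as in 22.7% of all genes in that direction, and overlapped in the WT libraries. On the log2 scale Tfam was 0.44 higher in set 2 in cKO libraries (adjusted p = 0.0181) and had an estimate of 0.12 in WT libraries (adjusted p = 0.526), a difference that is the interaction given above and did not pass. The call was lost when any 1 of cKO replicates 1, 2 or 5 or WT replicates 2 or 5 was left out, with adjusted p of 0.0541 to 0.138. It was also lost without the pair of cKO libraries with Y-linked reads, at 0.19 (adjusted p = 0.186), an alternative chosen after the data were seen.

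Polg fell by 0.25 on the log2 scale in set 2 (SE 0.0940, edgeR adjusted p = 0.0384). Its levels were 47.1, 47.5, 44.3 and 33.4 CPM in cKO set 2, against 49.5 and 50.3 CPM in cKO set 1. In WT libraries they were 44.3, 34.9 and 45.7 CPM in set 2, against 54.3, 46.2 and 51.2 CPM in set 1. Set 2 lay below set 1 within cKO, as in 23.7% of all genes, and within WT, as in 20.5%, though the ranges crossed over all 12 libraries. Neither genotype fitted alone gave a call, with a log2 fold change of -0.20 in cKO libraries (adjusted p = 0.330) and -0.28 in WT libraries (adjusted p = 0.105). The call was lost without any 1 of cKO replicates 1, 2 or 6 or WT replicates 1, 3 or 5, with adjusted p of 0.0536 to 0.116. Without the cKO libraries with Y-linked reads the estimate was -0.27 (adjusted p = 0.0769).

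The other 7 genes were not called between sets. Polrmt had the lowest estimate of these, -0.49 (SE 0.316, edgeR adjusted p = 0.223). Its levels were 5.70, 1.24, 1.77 and 2.07 CPM in cKO set 2, against 3.11 and 4.16 CPM in cKO set 1. In WT libraries they were 2.42, 1.65 and 2.78 CPM in set 2, against 4.03, 3.88 and 2.04 CPM in set 1. Without cKO replicate 3, which had 5.70 CPM, the log2 fold change was -0.78 and the adjusted p was 0.0200. For Ssbp1 (0.06, SE 0.0644), Slirp (-0.02, SE 0.0636) and Lrpprc (0.10, SE 0.0762) the estimates were small and tight. For Tfb1m (0.21, SE 0.151), Top1mt (0.18, SE 0.174) and Tfb2m (0.12, SE 0.176) they were wider. The genotype difference was not called to differ between sets for any of the 10 genes (0% of genes called), and at an unadjusted p under 0.05 the interaction had 464 genes (3.54%) and none of the 10.

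RNA levels of cell type markers differed between library sets, where 21.5% of all genes were called higher in set 2 and 22.2% lower. Astrocyte markers summed to 1144 to 1722 CPM in set 2 and 2595 to 3818 CPM in set 1, and 5 of 6 were called lower in set 2. Markers of the oligodendrocyte lineage summed to 391 to 669 CPM in set 2 and 889 to 1144 CPM in set 1, with 5 of 7 called lower. Neuronal markers summed to 192 to 373 CPM in set 2 and 128 to 154 CPM in set 1, with 5 of 6 called higher, and of the 8 progenitor markers 4 were called higher and 4 lower. Bulk counts cannot tell fewer cells of a type from less RNA per cell, and the part of these markers in the set differences of Ppargc1a, Tfam and Polg was not tested. After centring on each set, log2 CPM of Ppargc1a was correlated over the 12 libraries with the astrocyte sum (Pearson r = 0.823), the oligodendrocyte sum (r = 0.764), the progenitor sum (r = 0.671) and the neuronal sum (r = 0.141). For Tfam these were -0.229 with astrocyte, -0.161 with oligodendrocyte, -0.215 with progenitor and -0.562 with neuronal sums. All are given as a description of libraries that share their preparation. The genes whose centred levels were most like Ppargc1a were Prepl (r = 0.964), Megf10 (r = 0.953) and Gja1 (r = 0.950), over 12 libraries, and Gja1 is itself one of the astrocyte markers. Those most like Tfam were Yme1l1 (r = 0.912), Atxn10 (r = 0.889) and Tmco1 (r = 0.887).

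The other members of the PGC-1 family went the opposite way to Ppargc1a. Pprc1, a coactivator of NRF-1 that responds to growth signals, had 28.7, 34.9, 31.1 and 30.0 CPM in cKO set 2, against 13.1 and 12.4 CPM in cKO set 1. In WT libraries it had 28.3, 30.3 and 23.7 CPM in set 2, against 14.5, 10.3 and 13.8 CPM in set 1. It rose by 1.18 on the log2 scale in set 2 (SE 0.109, edgeR adjusted p = 5.99e-08). Ppargc1b (PGC-1β), the closest relative of Ppargc1a, averaged 2.53 ± 0.492 CPM in cKO set 2 (n = 4) and 1.04 ± 0.364 CPM in cKO set 1 (n = 2). It averaged 1.91 ± 0.104 CPM in WT set 2 and 0.653 ± 0.307 CPM in WT set 1 (SD, n = 3 each), on 6 to 46 reads per library. It rose by 1.41 in set 2 (SE 0.295, adjusted p = 6.92e-04). Both calls held with each of the 12 libraries left out, and for both genes every set 2 library lay above every set 1 library, as in 11.7% of all genes. Neither was called for genotype, where Ppargc1b had an estimate of 0.48 and Pprc1 of 0.11.

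**Figure D4:**
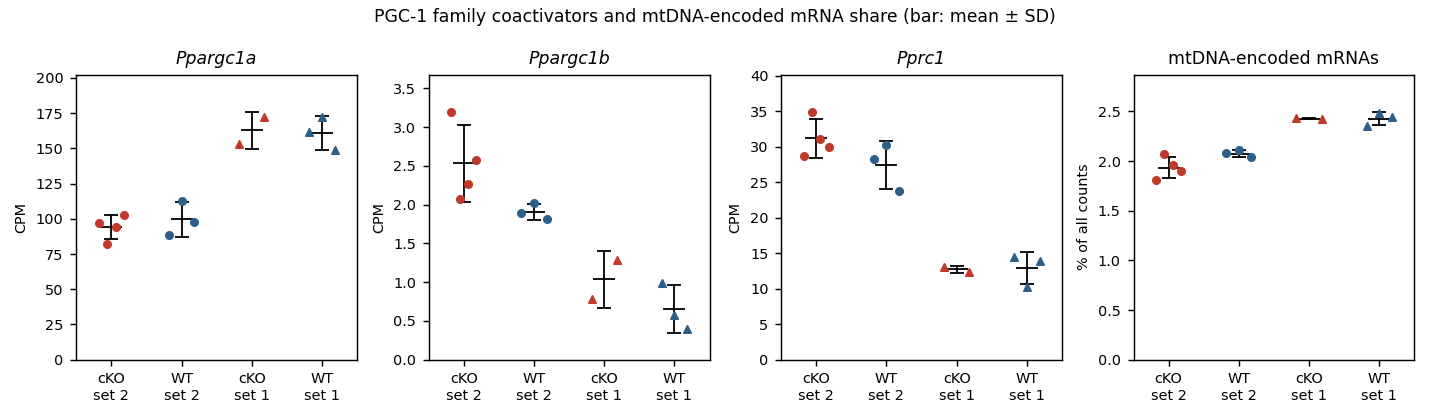
TMM-scaled CPM of the 3 PGC-1 family genes, and the share of all counts on mtDNA-encoded mRNAs in percent, by library, with bars for the mean ± SD in cKO set 2, WT set 2, cKO set 1 and WT set 1. Ppargc1a is lower in set 2 than in set 1, Ppargc1b and Pprc1 are higher, and the mitochondrial share is 1.81 to 2.11% in set 2 and 2.35 to 2.49% in set 1.

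Among the 13 nuclear regulators of mitochondrial biogenesis, 4 were called higher in set 2 and 1 lower, where 21.5% of all genes were called higher and 22.2% lower. Besides the PGC-1 relatives, Yy1, a zinc finger factor that recruits PGC-1α, was higher by 0.45 (SE 0.0919, edgeR adjusted p = 5.55e-04). The other calls, named after their values were seen, were Gabpb1, a subunit of GABP, at 0.51, and Ppara, a nuclear receptor that PGC-1α coactivates, at -0.65. The call of Ppara was lost on leaving out some libraries and held in 8 of 12. The DNA-binding partners most tied to PGC-1α were not called, with estimates of 0.08 for Nrf1, 0.07 for Gabpa, the DNA-binding subunit of GABP, and 0.35 (SE 0.309) for Esrra, which encodes ERRα.

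Around the 10 genes, 53 genes of 5 wider groups were tested, and 22 of them passed between sets, 12 higher and 10 lower. That is 41.5%, close to the 43.8% of all genes. Of 10 tested genes of mtDNA replication and repair, 2 were called higher and 1 lower in set 2, with a median log2 fold change of -0.002. Of 11 genes that supply nucleotides to mtDNA, 1 was called higher and 4 lower, with a median of -0.12, against 0.001 over all genes. Abat, which besides breaking down GABA takes part in mitochondrial nucleoside salvage, fell by 1.89 in set 2 (SE 0.109, edgeR adjusted p = 1.18e-10), with 73.9 to 107 CPM in set 2 and 264 to 444 CPM in set 1. Slc25a4, the ADP/ATP carrier of the inner membrane, fell by 0.53 in set 2 (SE 0.0570, adjusted p = 4.65e-07), with 942 to 1028 CPM in set 2 and 1178 to 1558 CPM in set 1. Of 6 genes of transcription elongation and termination, 1 was called higher and 2 lower. Of 13 genes of mitochondrial RNA stability, 4 were called higher and 2 lower, among them Grsf1, an RNA-binding protein of the mitochondrial RNA granules, which fell by 0.43 in set 2 (SE 0.0622, adjusted p = 1.67e-05).

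For genotype, 0 of the 53 genes were called and 4 had an unadjusted p under 0.05 (7.55%), against 6.14% of all genes. The estimates of smallest p above 0 were those of Primpol (Ccdc111 in the table), a primase and polymerase that restarts stalled copying, at 0.34, Slc25a36, a pyrimidine nucleotide carrier, at 0.14, Mterf1a (Mterf), a transcription terminator, at 0.24, Fastkd5, an RNA-processing protein, at 0.14, and Creb1, the CRE-binding factor, at 0.12. The estimates of smallest p below 0 were those of Top3a, a topoisomerase, at -0.12, Mpv17, an inner membrane protein needed for mtDNA upkeep, at -0.18, Tefm (1110002N22Rik), the elongation factor of POLRMT, at -0.11, Supv3l1, the helicase of the RNA degradosome, at -0.03, and Esrra at -0.43. Adjusted p for these was at least 0.803.

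**Figure D5:**
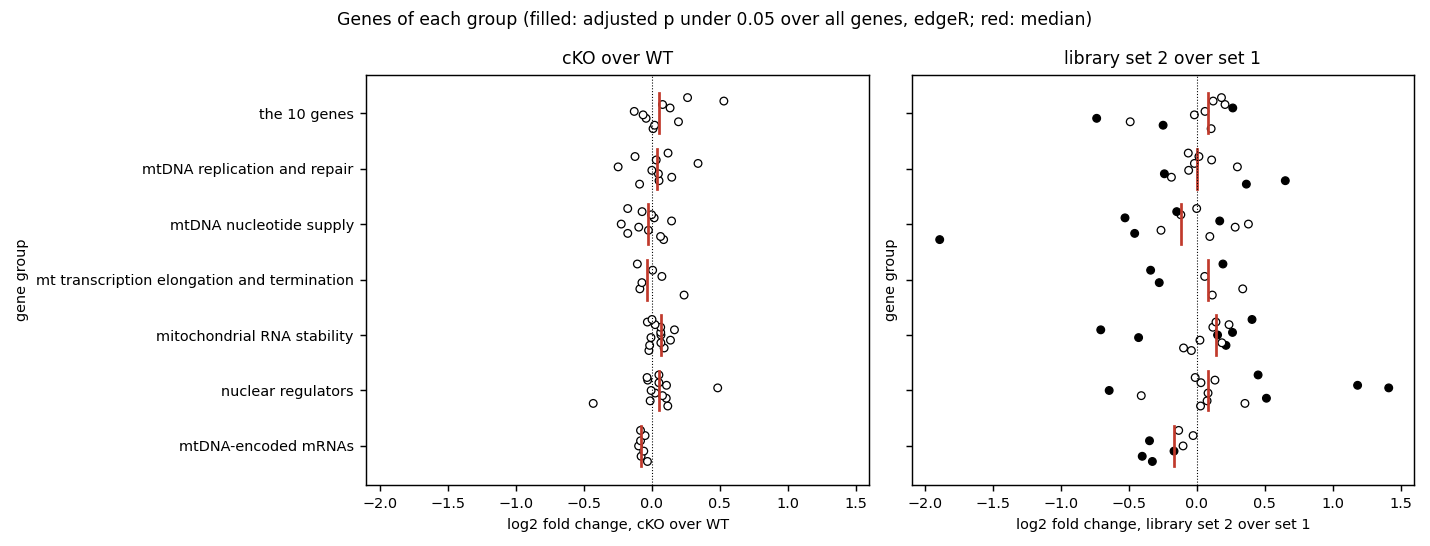
Log2 fold changes of the 10 genes, the 5 wider nuclear groups and the mtDNA-encoded mRNAs, for cKO over WT on the left and library set 2 over set 1 on the right, with 1 point per gene, filled where the adjusted p was under 0.05 (edgeR), and a red line at the group's median. No point is filled for genotype, and the filled points for library set lie on both sides of 0 except among the mtDNA-encoded mRNAs, where the 4 filled points are below 0.

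The mRNAs encoded by mtDNA, the products of this machinery, were read as a share of all counts. The share sums 13 mRNAs, of which only 7 had enough counted reads to be tested, so it is not their full output. Why the rest had so few counts was not tested, and these counts are not read as low expression. The share was 2.10% ± 0.269 in cKO libraries and 2.25% ± 0.199 in WT libraries (SD, n = 6 each). Within set 2 it was 1.81, 2.07, 1.96 and 1.90% in cKO, against 2.08, 2.11 and 2.04% in WT. Within set 1 it was 2.43 and 2.43% in cKO, against 2.35, 2.49 and 2.45% in WT. Genotypes overlapped in both sets, and the log2 difference of cKO minus WT within sets was -0.05 (exact permutation p = 0.134, two-sided, over 350 splits within sets). Without WT replicate 1 it was -0.06 (exact permutation p = 0.0333), and without each other library the p was 0.0650 to 0.220. All 7 set 2 libraries lay below all 5 set 1 libraries.

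Of 13 mtDNA-encoded mRNAs, 7 had enough reads to be tested, and mt-Atp6 was listed at 0 in all 12 libraries. For genotype 0 of 7 were called and all 7 estimates were below 0, as were 50.4% of those of all genes, with a median of -0.08. Within set 2 all 7 estimates were below 0 (median -0.14). Within set 1, 4 were above 0 and 3 below (median 0.001). The interaction of genotype with library set was called for 0 of the 7 (edgeR adjusted p = 0.9999), as for 0% of all genes. Between sets 0 were called higher and 4 lower, against 21.5% and 22.2% of all genes, with a median of -0.17. mt-Cytb, a subunit of complex III, fell by 0.40 in set 2 (SE 0.0376, edgeR adjusted p = 7.40e-08), with 7806 to 8913 CPM in set 2 and 10825 to 11720 CPM in set 1. mt-Nd4, a subunit of complex I named after its values were seen, fell by 0.35 (adjusted p = 1.35e-04), mt-Co1, a subunit of complex IV, by 0.33 (adjusted p = 1.88e-04) and mt-Nd1, of complex I, by 0.17 (adjusted p = 0.00426). Fitted in each genotype alone, the calls of mt-Cytb and mt-Nd4 held in both. For mt-Co1 the log2 fold change was -0.49 in cKO libraries (adjusted p = 2.64e-04) and -0.17 in WT libraries (adjusted p = 0.101). For mt-Nd1 it was -0.19 in cKO libraries (adjusted p = 0.115) and -0.14 in WT libraries (adjusted p = 0.0823), close to the estimate over both.

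HAC-seq gave little coverage of the transcripts of these genes. The authors' table keeps a C site only if at least 2 reads start just downstream of it in each WT library, and 9 of its 118890 sites lay in 4 of the 10 genes: 6 in Polg, 1 of them shared with Fanci, and 1 each in Lrpprc, Ppargc1a and Slirp, the last shared with Snw1. With coverage of at least 50 reads in each library 13240 sites were tested and 1 was called, and none of the 9 was among those tested. With coverage of at least 20 reads 3 of the 9 were tested, and none passed the quasi-binomial test (adjusted p of 0.795 to 0.957). At that coverage only 1 of all 25987 sites tested passed, so the lack of calls says little about these genes. The Polg site with the highest mean cleavage (chromosome 7, position 79456101, minus strand) had 2.78% ± 4.81 in cKO (SD, n = 3) and 21.3% ± 6.37 in WT (SD, n = 4), on 3 to 12 reads per cKO library and 7 to 23 per WT library. The WT minimum of read starts sets a floor under the WT ratio at such coverage and none under the cKO ratio, so this difference cannot be told apart from the filter. The Lrpprc site (chromosome 17, position 84773046) had 15.0% ± 13.8 in cKO (n = 3) and 27.9% ± 7.61 in WT (SD, n = 4), on 6 to 30 reads. The Ppargc1a site (chromosome 5, position 51457996) had 7.69% ± 13.3 in cKO (n = 3) and 15.7% ± 6.28 in WT (SD, n = 4), on 2 to 43 reads. The Slirp site (chromosome 12, position 87449295) had 8.79% ± 3.75 in cKO (n = 3) and 5.82% ± 3.79 in WT (SD, n = 4), on 35 to 80 reads.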

How the data were processed

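RNA-seq (SMART-seq2) and HAC-seq libraries of cultured NPCs were grouped by their labels. STAR 2.5.2a, Trimmomatic 0.32 and bcl2fastq 2.17.1.14 are listed in the submitters' processing notes, with builds GRCm38 (RNA-seq) and GRCm38.p6 (HAC-seq). Which program counted reads is not stated in these sources. For RNA-seq the authors deposited unnormalized read counts by gene. Of counts from 1 to 10, 17.4% were odd, against 50.1% of counts from 101 to 1000, so many low counts rise in steps of 2. The deposited HAC-seq table gives, per C site and library, the number of read starts (a signal), the read count at the site and their quotient as a fraction, and a p-value per site, not used here. The number of sample columns left out was 0.

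Genes were kept by filterByExpr and tested with edgeR 4.0.16 in R 4.3.3 (TMM, two-sided quasi-likelihood F test, genotype and library set as terms, Benjamini-Hochberg over 13105 genes, threshold 0.05). Intervals are 95%. DESeq2 1.42.0 and limma 3.58.1 were alternatives, and the tests were tried on simulated data. For HAC-seq a quasi-binomial model of read starts per coverage was used, with limma's squeezed dispersions, over sites with a mean ratio of at least 0.05. Promoter sequences and gene positions are from RefSeq (GRCm38.p6). The genes and lists were chosen with earlier results of these data known. All 10 genes are named. Of the wider groups, the genes named are those of smallest p in each direction per group for genotype, the 3 of smallest adjusted p in each direction for library set, and fixed regulators and mtDNA-encoded mRNAs.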

Additional observations from a re-analysis of the deposited data

Results flagged for a closer look

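Polg in the libraries labelled cKO had 1 library far from the other 5. cKO replicate 6 had 33.4 CPM, and on the log2 scale its gap to the nearest other library was 0.687 of the range of the 6 libraries. It was the only such case among 30 groups of libraries examined. Chance alone flags about 1 in 20 groups, so 1 in 30 is no more than chance would give. Without this library the log2 fold change of Polg between sets was -0.20 (edgeR adjusted p = 0.0536).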

How the results depend on the processing

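None of the 10 genes was called for genotype or for its interaction with library set under any alternative run. For genotype, the number of genes called was 0, against 2 with DESeq2, 1 with limma-voom, 65 with no filter on low counts and 2 in set 2 alone, and 0 to 1 with each library left out. For the interaction it was 0, against 2 with DESeq2, 35 with no filter and 0 to 1 with each library left out. Between sets it was 5736, against 3561 in WT libraries alone, 3403 in cKO libraries alone and 4957 to 5727 with each library left out. Of the 10 genes 3 were called between sets, against 1 in WT libraries alone, 1 without the cKO libraries with Y-linked reads and 1 to 4 with each library left out. No HAC-seq site of the 10 genes was called under the alternatives. Only coverage of at least 20 reads left any to test, and there 1 of all 25987 sites was called. The log2 difference of the mitochondrial share was -0.0680 to -0.0358 with each library left out.

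Small genotype estimates changed sign. Polg was at -0.0242 with no library set term and -0.0192 in set 1 alone. In set 1 alone Tfam was at -0.0561, Lrpprc at -0.0429 and Ppargc1a at 0.0168, and in set 2 alone Tfb1m was at -0.0448. With each library left out, Tfb1m ranged from -0.0383 to 0.143, Lrpprc from -0.0209 to 0.0408, Polrmt from -0.151 to 0.314, Polg from -0.0425 to 0.0755 and Ppargc1a from -0.0805 to 0.0159, and between sets Slirp ranged from -0.0428 to 0.0118. The replicate numbers do not pair the libraries: deviations of same-numbered libraries correlated at -0.05 to 0.17, and 1 of 6 correlated best with its own number. With the replicate block 2 genes were called, none of the 10, and Polrmt was at -0.28 and Polg at -0.00360. The cause of these changes was not tested. Polrmt has no value under the stricter filter, which removed it. Low counts limit Polrmt, Tfb2m and Ppargc1b, and coverage limits all HAC-seq values.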
